A study of Mus musculus with 28 samples.

Results

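Male mice fed a high-fat, high-cholesterol diet (HFC) differed among themselves in the liver genes that depend on the male pattern of growth hormone, and the 8 HFC males were set against each other on that basis. Members were chosen by their values: 4 livers had a low score of growth-hormone-pulse genes such as Mup7, Hsd3b5 and Slco1a1 (KO animals 414 and 415, CT animals 416 and 418), and 4 had a high score (KO animals 539 and 540, CT animals 417 and 543). They are 8 of 28 livers in all, and each side holds 2 animals of each genotype. Because the sides were drawn from these same libraries, every difference between them below is a description, with no test and no p-value, and it supports nothing on its own. Tests were run only on comparisons that the labels set.

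The study asked what endothelial c-Myc does in the liver under such a diet. The livers were whole organs of C57BL/6 mice, 13 weeks old by the labels, and each library came from 1 animal. EC-Myc KO mice (KO) lost c-Myc, which switches on genes of cell growth, from endothelial cells after tamoxifen switched on Cre at 5 weeks of age, and floxed mice served as controls (CT). The labels do not name the promoter that drove Cre. Both genotypes received tamoxifen, and 2 weeks later they were fed HFC or a low-fat control diet (CTD) for 5 weeks. Males numbered 4 in each of KO HFC, CT HFC, KO CTD and CT CTD, and females 3 in each of the same groups. CTD and HFC mice carry different ranges of animal numbers, and a cohort and the diet cannot be told apart. Within the HFC males, 414 to 418 and 539 to 543 are also separate ranges, and the low-score side is all of the lower range except CT 417.

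Growth hormone reaches the liver of male rodents in pulses and that of females almost continuously. The pulses activate the transcription factor STAT5B through the growth hormone receptor, and male-predominant liver genes such as the major urinary proteins, small carriers of pheromones that are secreted into urine, are known to need them. Loss of the pulses lowers these genes and raises female-predominant ones such as Cyp2a4, a steroid hydroxylase.

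The major urinary protein (Mup) genes carried the widest differences, and they lie side by side on chromosome 4. Of 52 genes lower in the low-score livers by the rule given below, 13 were Mup genes and 1 was the pseudogene Mup-ps16, all between bases 60066469 and 62150863 of chromosome 4 (GRCm38, GENCODE M21). They are near copies of each other: 5 of the 13 have a longest open reading frame of 543 bases, and these 5 were 98.5% to 99.3% identical over 10 pairs. Reads that match several of them could be split among copies by the authors' counting, so a value for a single Mup gene is uncertain. The promoters of the 3 Mup genes with the widest differences are shown 5′ to 3′, from RefSeq (GRCm38.p6), because they display how alike the copies are. Each is a window of 300 bases that spans the start of the gene, and capitals mark the 66 bases that all 3 share without a mismatch. They are Mup7 (chr4:60070426-60070725), Mup15 (chr4:61439655-61439954) and Mup19 (chr4:61782175-61782474), all on the minus strand.
Mup7: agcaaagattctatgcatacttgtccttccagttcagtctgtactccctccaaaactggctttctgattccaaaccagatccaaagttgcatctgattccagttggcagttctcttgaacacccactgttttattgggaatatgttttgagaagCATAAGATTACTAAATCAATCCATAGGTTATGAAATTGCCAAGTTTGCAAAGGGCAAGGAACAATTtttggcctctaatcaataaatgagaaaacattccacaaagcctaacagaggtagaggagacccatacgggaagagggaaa
Mup15: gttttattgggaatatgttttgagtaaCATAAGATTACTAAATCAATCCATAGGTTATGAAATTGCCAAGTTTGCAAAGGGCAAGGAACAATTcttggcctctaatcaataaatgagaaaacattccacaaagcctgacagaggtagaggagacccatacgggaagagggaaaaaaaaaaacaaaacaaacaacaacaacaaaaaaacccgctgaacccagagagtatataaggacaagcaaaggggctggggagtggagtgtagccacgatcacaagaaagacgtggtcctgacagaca
Mup19: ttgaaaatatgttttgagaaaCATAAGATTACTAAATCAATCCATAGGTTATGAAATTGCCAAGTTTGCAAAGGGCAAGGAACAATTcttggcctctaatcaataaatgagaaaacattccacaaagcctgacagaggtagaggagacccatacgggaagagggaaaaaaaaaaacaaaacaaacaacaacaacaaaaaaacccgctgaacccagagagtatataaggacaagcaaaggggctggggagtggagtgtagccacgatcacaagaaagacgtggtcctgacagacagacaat
The Mup15 and Mup19 promoters share an unbroken run of 275 bases.

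The 4 genes named for the split behaved in the direction it implies, and high-score livers had not kept the level of CTD livers. Values are TMM-scaled CPM, that is, read counts scaled to a common library size corrected for its make-up. Mup7 had 0.893 and 4.18 CPM in low-score KO livers and 6.66 and 2.67 CPM in low-score CT livers, against 61.1 and 11.2 CPM in high-score KO livers and 99.9 and 169.9 CPM in high-score CT livers. The 8 CTD males held 1534 to 23434 CPM of it. No liver of one side reached the other side, and no HFC male reached any CTD male.

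Hsd3b5, a hydroxysteroid dehydrogenase of male mouse liver, had 3.16, 14.4, 6.79 and 1.64 CPM in the low-score livers KO 414, KO 415, CT 416 and CT 418, against 45.5, 23.9, 70.2 and 36.4 CPM in the high-score livers KO 539, KO 540, CT 417 and CT 543. CTD males held 86.1 to 202 CPM. Slco1a1, a transporter of organic anions, had 46.6, 122, 84.9 and 35.6 CPM in the low-score livers and 217, 177, 298 and 211 CPM in the high-score livers, in the same animal order, and 430 to 738 CPM in CTD males. For both genes the 3 groups stood apart, with the high-score livers in the middle. Cyp2a4 ran the other way, with 405, 333, 237 and 442 CPM in the low-score livers and 43.9, 162, 108 and 110 CPM in the high-score livers. CTD males held 0.624 to 22.9 CPM of Cyp2a4, so its high-score values also lay between the other groups. The label of kept genes therefore describes these livers only beside the low-score ones, and they are called high-score here.

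**Figure D1:**
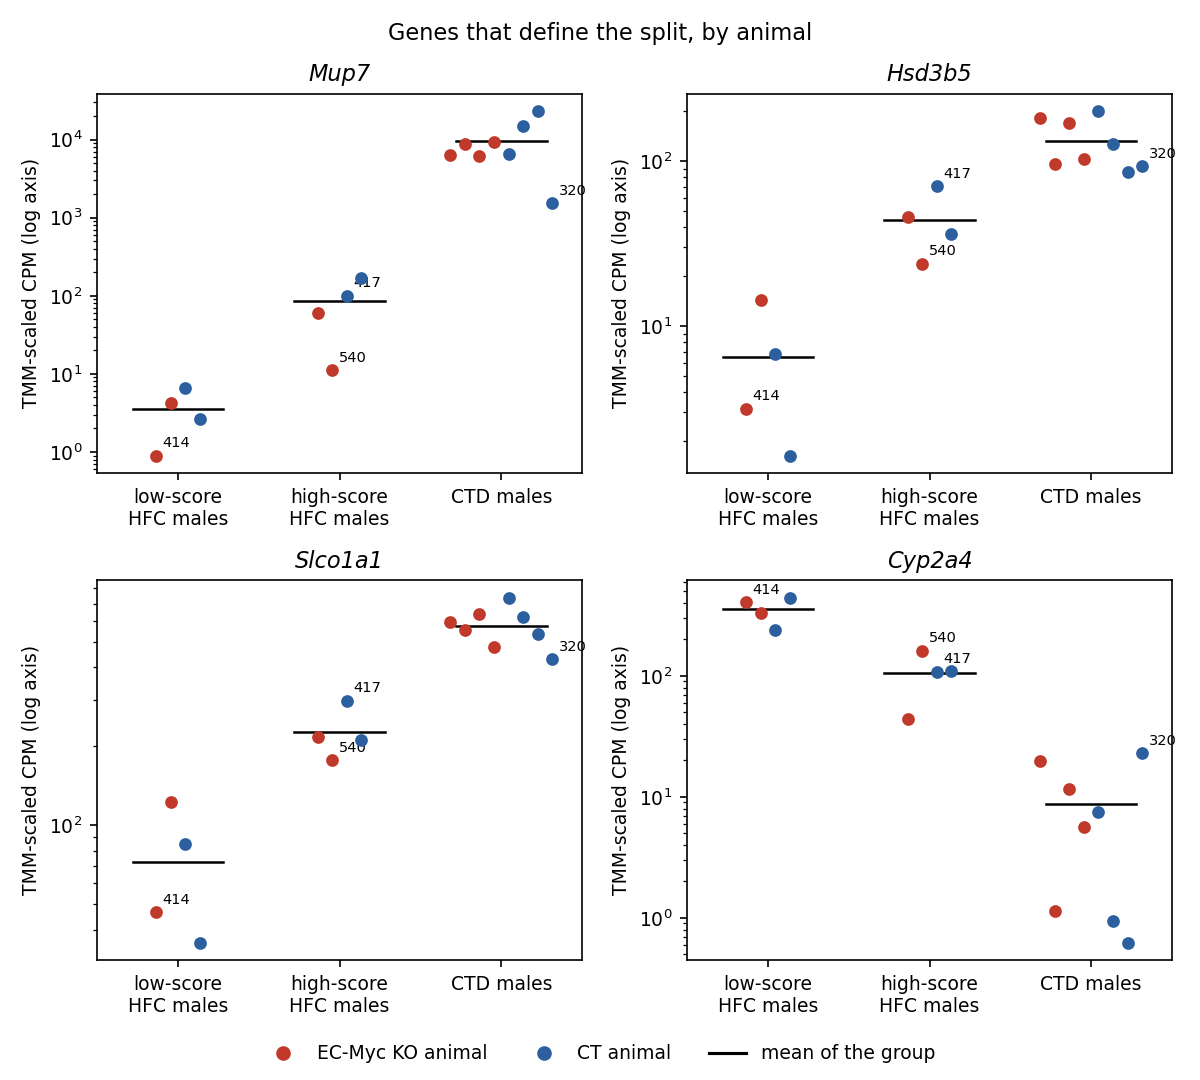
TMM-scaled CPM (log axis) of Mup7, Hsd3b5, Slco1a1 and Cyp2a4 in the low-score HFC males, the high-score HFC males and the CTD males. Each point is 1 animal, red for KO and blue for CT, the line is the group mean, and some animal numbers are written beside their points. In all 4 genes the high-score livers lie between the low-score livers and the CTD livers.

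Over a list of 25 male-predominant genes the score was a gradient with a narrow gap. The mean log2 CPM of the list was 4.50 in KO 414, 4.98 in CT 418, 5.39 in CT 416 and 5.60 in KO 415 on the low-score side, against 6.26 in KO 540, 7.06 in KO 539, 7.17 in CT 417 and 7.24 in CT 543 on the high-score side. KO 415 and KO 540 are the members just inside and just outside the line. CTD males ran from 7.78 in CT 320 to 9.36 in CT 313. The 17 female-predominant genes that passed the filter on low counts, of 31 listed, had a mean log2 CPM of 2.66 to 3.23 in low-score livers and 1.52 to 2.01 in high-score livers. CTD males spread from 1.27 to 3.14 on that list, with CT 320 at 3.14, within the range of the low-score livers. All Mup genes together took 1.32% to 1.89% of counts in low-score livers, 2.53% to 3.63% in high-score livers and 4.05% to 10.4% in CTD males.

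**Figure D2:**
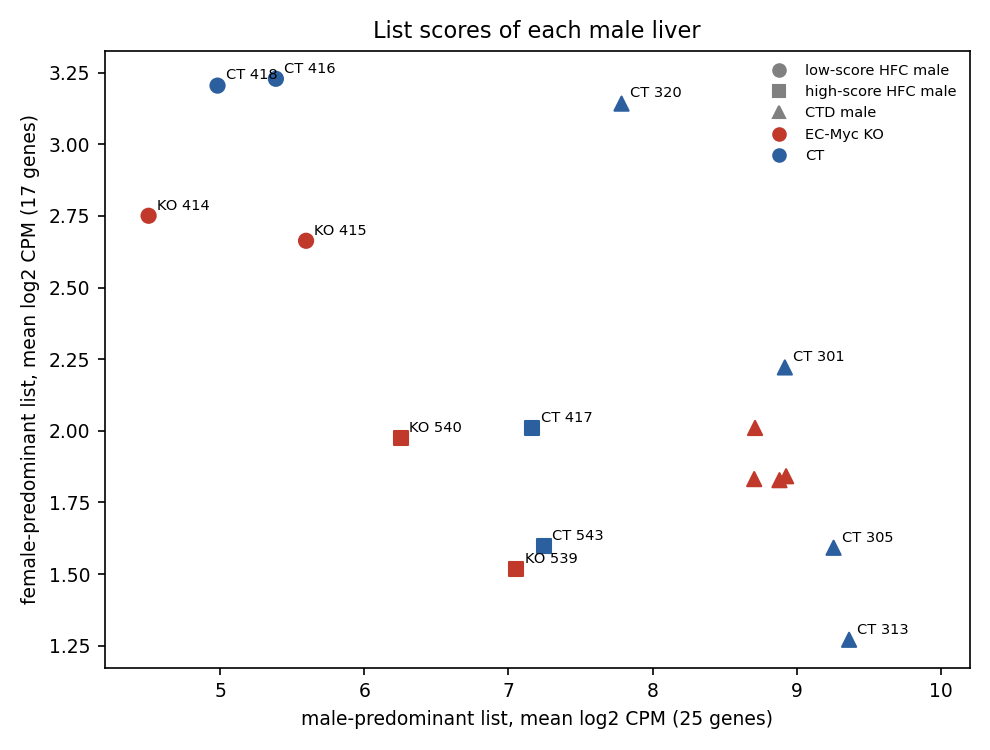
Mean log2 CPM of the male-predominant list (x axis, 25 genes) and of the female-predominant list (y axis, 17 genes) in each male liver. Circles are low-score HFC males, squares high-score HFC males and triangles CTD males, red for KO and blue for CT. Low-score livers sit at the upper left, KO 540 is the high-score liver nearest to them, and CT 320 stands apart from the other CTD males in the direction of the low-score livers.

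Library totals of the sides overlapped. Total counts were 22234307 to 22636566 in low-score livers and 22194470 to 22652285 in high-score livers, and 18741939 to 19195502 in the 12 female libraries. Mitochondrial genes took 10.49% to 11.54% of counts in low-score livers and 10.35% to 10.46% in high-score livers. In that share every low-score liver was above every high-score liver. TMM factors were 1.07 to 1.19 in low-score livers and 1.02 to 1.11 in high-score livers. No pair of same-genotype livers on a side was a repeat of 1 library, since chi-square over degrees of freedom was 26 to 50 for the 4 pairs. Myc itself had 20.0, 8.90, 6.29 and 11.3 CPM in the low-score livers KO 414, KO 415, CT 416 and CT 418, against 5.62, 11.2, 3.58 and 12.4 CPM in the high-score livers KO 539, KO 540, CT 417 and CT 543, and the sides overlapped. KO livers did not stand below CT livers in it, which for a whole liver is no check of a deletion in endothelial cells. Of the 8 exocrine pancreas markers, 6 had no count in any male library and the other 2 reached at most 6 counts, and Adipoq and Lep, which define fat cells, reached at most 1 count.

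Of 14078 genes that passed the filter, 52 (0.369%) were lower in all 4 low-score livers than in all 4 high-score livers and at least 2-fold apart in mean log2 CPM, and 25 (0.178%) were higher by the same rule. These are called separated genes. Without the fold condition 318 genes (2.26%) lay wholly below and 272 (1.93%) wholly above. The line at 2-fold is a cut in a run of values: Orm2 at -1.02 and Osgin1 at 1.0 lay just inside it, and Pdlim3 at -0.99 and Zfp941 at 0.99 just outside. Of the separated genes, 32 lower and 11 higher ones had a mean of at least 5 CPM on a side. With 1 liver left out, fewer livers have to stand apart, and KO 540, the high-score liver nearest the line, moved the counts most, to 87 lower and 59 higher genes. The higher genes were 55 without CT 417, 50 without KO 415, 48 without CT 416, 39 without KO 539 and 38 without KO 414.

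Male-predominant genes were 14 of the 52 lower genes (26.9%): 14 of the 25 listed were in the set, none was separated higher, and the list's median difference was -1.32 log2, against 0.00 over all tested genes. The list shares its genes with the score that chose the sides, so this count describes the choice. Mup19 had 0, 11.3, 25.2 and 2.23 CPM in the low-score livers KO 414, KO 415, CT 416 and CT 418, against 453, 70.5, 329 and 616 CPM in the high-score livers KO 539, KO 540, CT 417 and CT 543. Its difference was -6.68 ± 1.93 log2 (SE, 4 and 4 animals), the widest of all tested genes. Mup3 differed less, with 502, 1430, 1497 and 1110 CPM in the low-score livers and 4829, 1589, 4205 and 3739 CPM in the high-score livers, where KO 540 nearly met them.

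Elovl3, an enzyme that lengthens fatty acids, had 1.71, 19.4, 4.19 and 3.75 CPM in the low-score livers and 43.6, 44.0, 22.7 and 39.6 CPM in the high-score livers. KO 415 lay close to CT 417 in it. Serpina1e, a protease inhibitor of the alpha-1-antitrypsin family, had 47.7, 43.2, 30.9 and 25.4 CPM in the low-score livers, against 283, 146, 510 and 182 CPM in the high-score livers. Its relatives in the same family moved less: Serpina1c differed by -0.74 ± 0.21 log2 and Serpina1a by -0.34 ± 0.11, and neither was separated. Cyp7b1, an oxysterol hydroxylase, had 7.03, 14.5, 14.6 and 14.6 CPM in the low-score livers and 62.7, 25.7, 36.5 and 59.2 CPM in the high-score livers. Obp2a, an odorant-binding relative of the Mup proteins, had at most 0.893 CPM in low-score livers and 7.11, 2.93, 3.0 and 7.76 CPM in the high-score livers. CTD males held 0.269 to 3.74 CPM, so KO 539 and CT 543 were above all of them.

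In other male-predominant genes the high-score livers reached the CTD values. Cyp4a12a, a fatty acid hydroxylase, had 54.5, 73.6, 101 and 147 CPM in the low-score livers, against 174, 321, 198 and 208 CPM in the high-score livers. CTD males held 91.4 to 290 CPM of it, so high-score livers were within or above the CTD values. C6, a complement component that also stands in the list of Kupffer cell markers, had 165, 115, 68.5 and 79.4 CPM in the low-score livers and 252, 219, 261 and 236 CPM in the high-score livers. CTD males held 78.4 to 394 CPM of C6, with CT 320 lowest. The summed level of the 12 Kupffer cell markers was 794 to 1012 CPM in low-score livers and 920 to 1196 CPM in high-score livers. C6 was the only 1 of them separated, where 0.369% of all tested genes were separated lower.

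Genes predominant in female liver were 6 of the 25 higher genes (24%). Of the 17 tested, 6 were separated higher and none lower, where 0.178% of all tested genes were separated higher. The median difference of the list was 1.26 log2, against -0.003 over all tested genes. This list holds the marker Cyp2a4 and was drawn up with earlier results of these data known, so the count supports nothing on its own. Cyp2b13 had 2.12, 4.02, 14.5 and 3.71 CPM in the low-score livers KO 414, KO 415, CT 416 and CT 418, against 1.2, 0.448, 0.883 and 0.913 CPM in the high-score livers KO 539, KO 540, CT 417 and CT 543. It was a low gene, and CT 416 was its highest liver. Acot3, a peroxisomal acyl-CoA thioesterase, had 13.0, 26.5, 33.7 and 33.7 CPM in the low-score livers and 6.49, 8.76, 11.7 and 9.25 CPM in the high-score livers. Abcd2, a peroxisomal fatty acid transporter, had 23.4 to 27 CPM in low-score livers and 9.34 to 16.4 CPM in high-score livers, and CTD males covered both ranges at 7.28 to 34.5 CPM. Cux2, a transcription factor of female liver, had 2.34, 3.03, 5.91 and 13.4 CPM in the low-score livers and 2.19, 1.79, 3.09 and 2.20 CPM in the high-score livers, and the sides overlapped.

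Most genes of the growth hormone signal itself were not separated, as held for nearly all tested genes. Of 23 genes of the receptor and STAT5 signalling list, 1 was separated, lower, where 0.369% of all tested genes were separated lower. The median difference of the list was 0.11 log2. The receptor gene Ghr had 252 to 348 CPM in low-score livers, against 278 to 424 CPM in high-score livers, and Stat5b, the pulse-activated factor, had 52.7 to 70.3 CPM in low-score livers and 54.0 to 69.3 CPM in high-score livers. Socs2, a STAT5 target that restrains the signal, had 35.5, 28.2, 48.7 and 28.4 CPM in the low-score livers and 12.9, 34.8, 27.6 and 18.3 CPM in the high-score livers. Cish, another such target, had 6.70 to 53.1 CPM in low-score livers and 9.31 to 39.8 CPM in high-score livers. Igf1, the main hormone product of growth hormone action in liver, had 291 to 419 CPM in low-score livers and 306 to 402 CPM in high-score livers. Bcl6, a repressor that opposes STAT5, ran from 16.5 to 97.7 CPM in low-score livers and from 13.3 to 51.1 CPM in high-score livers. In each of these 6 genes the sides overlapped. Each level is a single reading of an animal.

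A group of genes outside the sex-biased lists also separated. Tat, a tyrosine-degrading enzyme that glucocorticoids and fasting induce, had 523, 536, 619 and 686 CPM in the low-score livers KO 414, KO 415, CT 416 and CT 418, against 1626, 1258, 1610 and 1504 CPM in the high-score livers KO 539, KO 540, CT 417 and CT 543. Its difference was -1.34 ± 0.13 log2 (SE, 4 and 4 animals), with the sides tight and far apart. CTD males held 1325 to 3130 CPM. Tsc22d3, the glucocorticoid-induced leucine zipper gene, had 26.8, 45.4, 74.0 and 66.4 CPM in the low-score livers and 113, 109, 119 and 115 CPM in the high-score livers. High-score livers were within the CTD range of 88.8 to 124 CPM in Tsc22d3, and all low-score livers were below it. It was the only 1 of 12 genes in the glucocorticoid response list to separate, where 0.369% of all tested genes were separated lower. The list median was -0.40 log2.

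Ddit4, a stress-induced inhibitor of mTORC1, had 3.12 to 6.70 CPM in low-score livers and 10.3 to 16.3 CPM in high-score livers, and CTD males 9.06 to 19.1 CPM. Pfkfb3, which makes an activator of glycolysis, had 15.3 to 34.4 CPM in low-score livers and 44.1 to 69.9 CPM in high-score livers, with CTD males at 40.6 to 79.8 CPM. In both, the high-score livers lay within the CTD range and the low-score livers below it. Per1, a clock gene that glucocorticoids also induce, had 18.3 to 41.6 CPM in low-score livers and 42.0 to 57.4 CPM in high-score livers, a gap under 2-fold in the means. None of the 19 clock genes tested, Per1 among them, was separated at 2-fold. That count is near the share of all tested genes, 0.369% lower and 0.178% higher. The labels give neither the time of collection nor feeding state.

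In the acute phase list 3 of 21 genes were separated, all lower, where 0.369% of all tested genes were separated lower. The list median was -0.33 log2. Saa1 and Saa2, 2 of the 3, lie close together on chromosome 7 and differed almost equally, so the 3 are not independent genes. Saa1, an inflammation-induced serum amyloid, had 50, 97.9, 67.6 and 62.8 CPM in the low-score livers and 225, 154, 234 and 205 CPM in the high-score livers. CTD males spread far more widely, from 13.0 to 986 CPM, so both sides lay inside the CTD range. Saa2 and Orm2 differed by -1.57 ± 0.21 and -1.02 ± 0.23 log2. Nnmt, a nicotinamide methyltransferase, had 6.07, 7.13, 5.70 and 7.18 CPM in the low-score livers and 28.8, 7.82, 21 and 30.5 CPM in the high-score livers, so KO 540 almost met the low-score side.

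Some of the 25 higher genes handle fatty acids and lipoproteins, a grouping made after the values were seen: Lpl, Angptl8, Acot2, Acot3, Abcd2 and Cyp4a31. The share of such genes among all tested genes was not counted. Angptl8, Acot2, Acot3 and Abcd2 were also called higher in females than in males on CTD. Lpl, which releases fatty acids from lipoproteins, had 241, 190, 139 and 181 CPM in the low-score livers KO 414, KO 415, CT 416 and CT 418, against 80.7, 129, 83.6 and 73.5 CPM in the high-score livers KO 539, KO 540, CT 417 and CT 543, and 16.4 to 37.7 CPM in CTD males. Every HFC liver was above every CTD liver in Lpl, and KO 540 was just below CT 416. Osgin1, an oxidative stress gene, had 179 to 369 CPM in low-score livers and 95.3 to 143 CPM in high-score livers. Angptl8, an inhibitor of lipoprotein lipase, had 23.2 to 41.7 CPM in low-score livers and 9.46 to 20.0 CPM in high-score livers. Fgf21, a hormone of metabolic stress named after its values were seen, had 11.4, 4.35, 34.1 and 25.5 CPM in the low-score livers, against 0.951, 7.82, 2.78 and 1.74 CPM in the high-score livers, and KO 415 lay below KO 540. Lists of fatty acid oxidation, cholesterol synthesis, triglyceride synthesis and lipid droplets held 1, 0, 0 and 0 separated genes, out of 23, 24, 20 and 14. Over all tested genes 0.369% were separated lower and 0.178% higher, so lists of this size are likely to hold none.

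**Figure D3:**
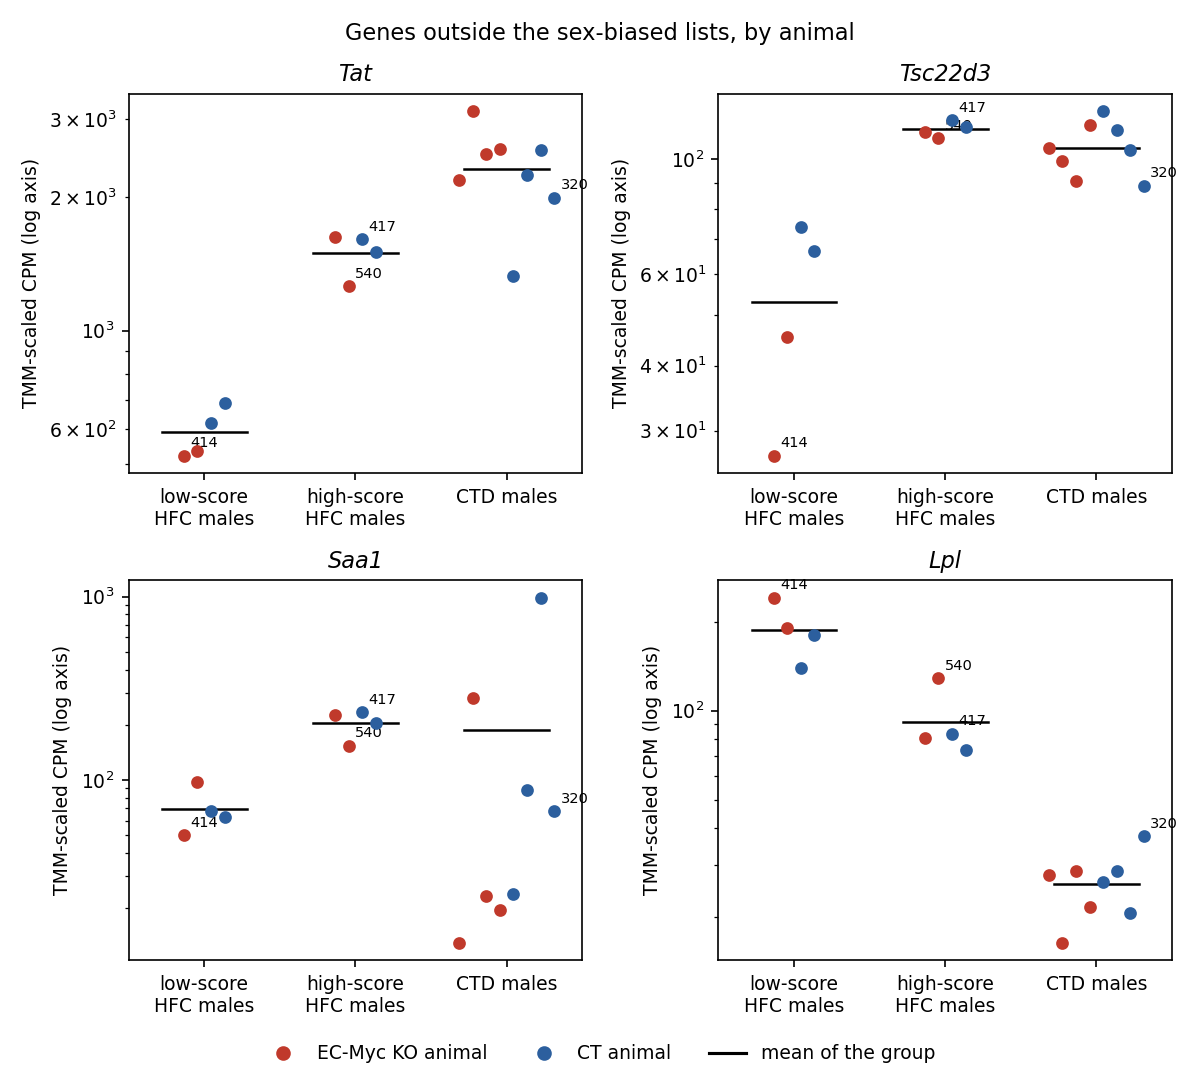
TMM-scaled CPM (log axis) of Tat, Tsc22d3, Saa1 and Lpl in low-score HFC males, high-score HFC males and CTD males. Each point is 1 animal, red for KO and blue for CT, and the line is the group mean. High-score livers reach the CTD range in Tsc22d3 and lie among the CTD livers in Saa1, and all HFC livers exceed the CTD livers in Lpl.

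Some of the 25 higher genes were immunoglobulin genes, a grouping made after the values were seen, and their share of all tested genes was not counted. Igkc and Igkv1-110 were also called higher in females than in males on CTD. Igkc, the constant part of the kappa light chain, had 66.5, 44.3, 41.4 and 78.9 CPM in the low-score livers and 35.5, 13.7, 40.7 and 17.4 CPM in the high-score livers, so CT 416 and CT 417 were nearly level. Jchain, which joins secreted antibodies, had 14.2, 9.84, 14.2 and 19.7 CPM in the low-score livers and 7.40, 3.95, 9.98 and 3.73 CPM in the high-score livers and overlapped. None of the 12 B and plasma cell markers was separated, a count near the share of all tested genes (0.369% lower and 0.178% higher). Their summed level was 37.0 to 64.6 CPM in low-score livers, 31.3 to 35.1 CPM in high-score livers and 17.8 to 35.0 CPM in CTD males. Fewer cells of a type and less RNA per cell cannot be told apart in a whole liver, here or in any group of genes below.

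Many other lists held no gene separated at 2-fold. Over all tested genes 0.369% were separated lower and 0.178% higher. At these shares a list of this size is likely to hold none, so a count of 0 says little about it. No gene was separated in the lists of hepatocyte transcription factors (22 tested), secreted hepatocyte proteins (18), bile acid synthesis and transport (23), interferon response (22), macrophages and monocytes (20), MHC class II (10), T and NK cells (19), collagen and matrix (36), stellate cells (16), endothelial cells (30) or cell cycle (26). The list of recruited and lipid-associated macrophage genes (18 tested) held 1 separated gene, Lpl, higher, and its median was 0.25 log2. Its summed level was 1337 to 2333 CPM in low-score livers and 1339 to 1571 CPM in high-score livers. Without the fold condition, 4 of the 30 endothelial markers (13.3%) lay wholly above in low-score livers and none wholly below, where 1.93% of all tested genes lay wholly above. They were Flt1, Lyve1, Eng and Emcn, named after their values were seen, with differences of 0.28 to 0.49 log2. The median of the endothelial list was 0.28 log2, and its summed level was 662 to 813 CPM in low-score livers, 578 to 679 CPM in high-score livers and 457 to 740 CPM in CTD males. Cyp7a1, the rate-limiting enzyme of bile acid synthesis, had 3.23 to 7.71 CPM in low-score livers and 6.97 to 15.3 CPM in high-score livers and overlapped, while CTD males held 53.2 to 357 CPM. Adgre1, a macrophage marker, had 37.7 to 43.7 CPM in low-score livers and 32.7 to 55.1 CPM in high-score livers, and H2-Ab1, an MHC class II gene, 84.5 to 185 CPM in low-score livers and 92.2 to 196 CPM in high-score livers. Col1a1 had 9.97 to 71.4 CPM in low-score livers and 10.3 to 27.5 CPM in high-score livers. Gstm3, a glutathione transferase, had 849, 279, 676 and 2698 CPM in the low-score livers and 88.7, 2174, 56.3 and 131 CPM in the high-score livers. It was not separated, since KO 540 lay among the low-score values, while the other high-score livers lay below all low-score livers. Low-score minus high-score livers gave 3.97 log2 in CT and 0.15 in KO. KO 414 was the highest low-score liver in Col1a1 and KO 540 the highest high-score liver in Gstm3.

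**Figure D4:**
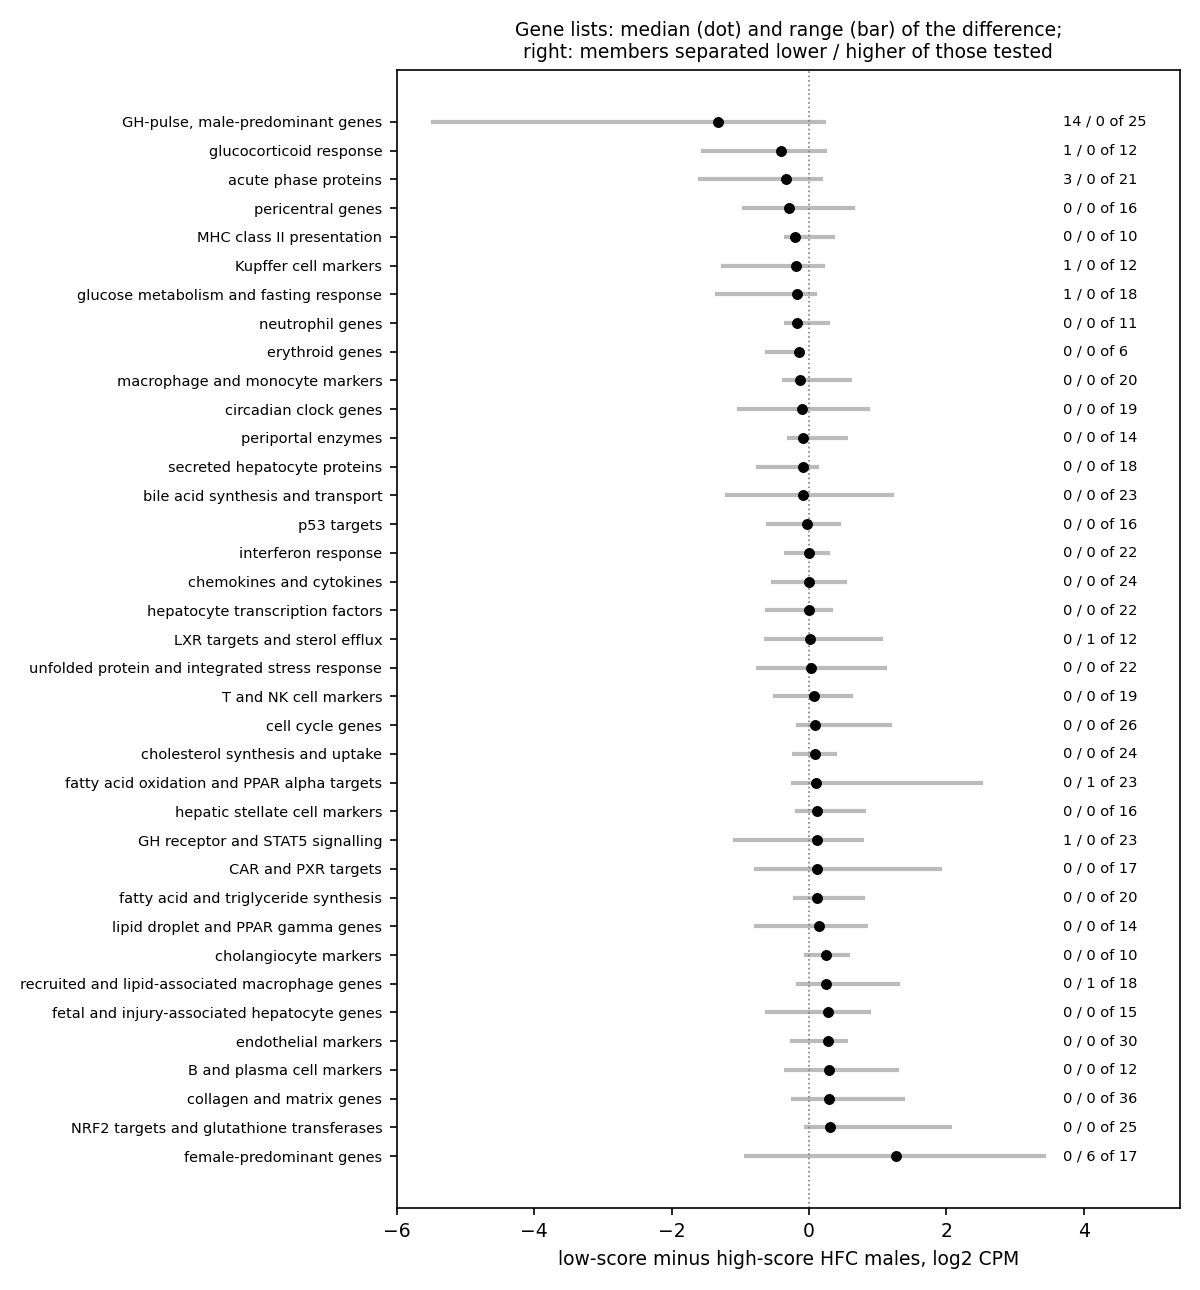
Difference between low-score and high-score HFC males (log2 CPM, x axis) over the tested genes of each gene list (y axis). The dot is the list's median, the bar runs from its lowest to its highest gene, and the counts at the right are separated lower and separated higher genes of those tested. The male-predominant list at -1.32 and the female-predominant list at 1.26 lie at the ends, and most other lists have medians within 0.4 of 0.

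Values within each genotype ran the same way. The 52 lower genes had a median difference of -1.45 log2 between KO 414 and 415 and KO 539 and 540, and of -1.71 between CT 416 and 418 and CT 417 and 543. The 25 higher genes had medians of 1.29 in KO and 1.32 in CT. CT 417, whose number falls among those of the low-score animals, stood with the high-score side: CT 416 and 418 minus CT 417 alone gave medians of -1.59 for the lower and 1.29 for the higher genes, and 41 of the 52 lower genes were at least 2-fold lower. These genes were chosen for the direction, so it is no sign of stability.

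KO against CT on HFC was tested in males with all 4 animals of each genotype, and no gene was called (0 of 14078, 0%). By edgeR's quasi-likelihood test 653 genes had an unadjusted p under 0.05, and DESeq2 called 3 genes lower, the predicted genes Gm10359, Gm12671 and Gm12918, named after their values were seen. Their fitted changes were -26.4, -26.4 and -22.8 log2, too wide to be read as measured falls. None of the 3 was a separated gene. Of the separated genes, 0 of 52 and 0 of 25 were called. On simulated counts for this comparison (13921 genes), the edgeR test called 28% of 50 genes shifted by 0.5 log2 and 74% of 50 shifted by 1. Small shifts could therefore be missed.

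Over the separated genes, the low-score side lay further from the 8 CTD males than the high-score side. The genes were chosen for a gap between the sides, so this difference is largely set by the choice. All 4 low-score livers were below all CTD livers for 37 of the 52 lower genes, and all 4 high-score livers for 18, where 9.65% of all tested genes lay wholly below CTD in low-score livers and 7.12% in high-score livers, while Tmeff2 and Gm3839 were wholly above CTD in high-score livers. Median differences from CTD were -2.33 log2 for low-score and -0.86 for high-score livers over the lower genes, and 1.54 for low-score and 0.02 for high-score livers over the higher genes. Low-score livers were wholly above CTD for 12 of the 25 higher genes, and high-score livers for 3, Osgin1, Lpl and Cyp2a4, where 10.5% of all tested genes lay wholly above CTD in low-score livers and 8.51% in high-score livers. HFC against CTD in males, which includes the 8 chosen livers, called 34 of 52 lower genes lower and 1 higher, where 20.4% of all tested genes were called lower and 20.4% higher (2865 and 2876 genes, or 750 and 7356 when scaled by library totals alone). The 1 higher was Gm3839, and many of the 34 lower were Mup genes, near copies of each other. Of the 25 higher genes it called 11 higher and 0 lower. Mup7 fell by 8.01 log2 (SE 1.21, edgeR adjusted p = 0.00021), and Hsd3b5 fell by 2.41 (SE 0.65, adjusted p = 0.01).

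CTD males differed among themselves in these genes. CT 320, the CTD male with the lowest male-list score, was the lowest of 8 for 27 of the 52 lower genes and the highest of 8 for 11 of the 25 higher genes, where it was the lowest for 19.9% and the highest for 20.6% of all tested genes. Its median difference from the other 7 CTD males was -0.73 log2 over the lower and 0.66 over the higher genes. CT 313 stood at the other end, highest of 8 for 27 of the 52 lower genes and for 14.8% of all tested genes.

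The same genes were read in livers that did not take part in the choice. Female livers were compared with male livers on CTD, over 6 and 8 animals, and sex cannot be told apart from the deposited table, since each sex was deposited on its own. Of the 52 lower genes, all tested, 34 (65.4%) were lower in females, where 28.3% of all 13948 tested genes were called lower and 28.7% higher (3946 and 4007 genes, or 4918 and 2829 with library totals). The other direction was called for 3 of them, Mpped2, Nnmt and Orm2, and for 1 without CT CTD female 306. Many of the 34 were Mup genes, near copies of each other. The sides were chosen by a score of male-predominant genes, and that list holds 14 of the 52 lower genes. The female-predominant list holds 6 of the 25 higher genes. All of these were counted in, so sex bias of the separated genes is partly set by the choice. Of the 25 higher genes 22 were tested and 15 (68.2%) were higher in females, with 0 lower. The median log2 fold change was -1.94 over the lower genes and 1.27 over the higher genes, against 0.04 over all tested genes. Cyp4a12a had the widest gap among the lower genes at -11.16 (SE 0.45, edgeR adjusted p = 4.4e-09), and Cyp2b13 among the higher genes at 11.62 (SE 0.37, adjusted p = 7.1e-10). Tat, at 0.00 (SE 0.15, adjusted p = 0.998), Tsc22d3, at -0.41 (SE 0.18, adjusted p = 0.076), Ddit4, Saa1 and Saa2 were not called between the sexes. Pfkfb3, described above beside Ddit4, was called lower in females. Nnmt, lower in low-score livers, was higher in females by 1.34 (SE 0.44, adjusted p = 0.023).

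Most of the lower genes that were tested, many of them Mup copies, also fell on HFC in females. The higher genes were called higher at about the share of all tested genes. HFC against CTD in females was tested over 6 and 6 livers, and called 10.4% of 13999 genes higher and 8.98% lower (1450 and 1257 genes, or 6079 and 519 with library totals). Of 42 lower genes tested, 26 (61.9%) fell and 0 rose, with a median of -1.85 log2 against 0.01 over all tested genes. Many of the 26 were Mup genes, near copies of each other, so the share is not a count of independent genes. The other 10 of the 52 did not pass the filter in females. Mup7 had 0.377 to 4.27 CPM in HFC females and 12.4 to 32.3 CPM in CTD females, a fall of 4.56 log2 (SE 0.50, edgeR adjusted p = 0.00036). Mup19 had 0.474 to 21.4 CPM in HFC females and 290 to 1369 CPM in CTD females, and no value was shared between the groups. Serpina1e had 2.40 to 14.7 CPM in HFC females and 111 to 1121 CPM in CTD females. Tat had 372 to 1058 CPM in HFC females and 1476 to 2542 CPM in CTD females, a fall of 1.71 log2 (SE 0.22, adjusted p = 0.0003). All Mup genes together took 0.0737% to 0.412% of counts in HFC females and 0.983% to 2.46% in CTD females.

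Of 23 higher genes tested in females, 3 (13.0%) rose on HFC and 4 (17.4%) fell, where 10.4% of all tested genes were called higher and 8.98% lower, and with library totals 10 rose and 2 fell. Without KO CTD female 317, 5 rose. Cyp2a4, Lpl and Trpm6, a magnesium channel, rose. Cyp2a4 had 1156 to 2118 CPM in HFC females and 542 to 882 CPM in CTD females, a rise of 1.0 log2 (SE 0.15, edgeR adjusted p = 0.00096). Abcd2, Acot3, Pde6c and Slc22a27, a solute carrier, fell. Acot3 had 33.6 to 216 CPM in HFC females and 210 to 357 CPM in CTD females, a fall of 1.08 log2 (SE 0.33, adjusted p = 0.044). Of the list of female-predominant genes, 30 were tested in females, 14 fell and 2 rose, and the list median was -1.05 log2. In HFC males, against CTD, the same list held 17 tested genes, of which 8 rose and 4 fell. The diet contrasts of the 2 sexes were not tested against each other.

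**Figure D5:**
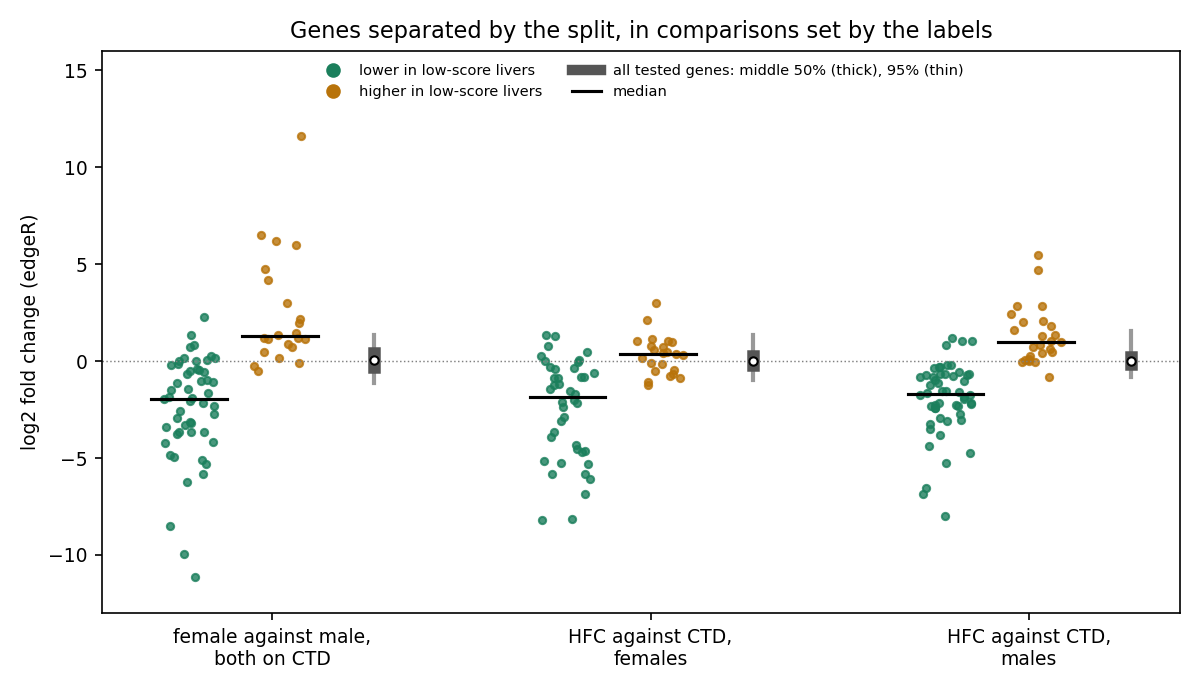
edgeR log2 fold changes of the separated genes in comparisons set by the labels. Green points are genes lower in low-score livers, orange points genes higher in them, black lines their medians, and grey bars the middle 50% and 95% of all tested genes. Lower genes have medians of -1.94 between the sexes and -1.85 for HFC in females, and the comparison in males on the right shares the 8 HFC livers that chose the genes.

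Promoters of the separated genes were searched for the binding motif of STAT5, TTCNNNGAA on both strands, in RefSeq windows of 300 bases. It was found in 1 of 39 lower genes with a promoter (2.56%) and 0 of 14 higher genes, against 9.55% of 27025 genes. Many of the 39 are Mup genes with promoters much alike, so the 39 are not separate sequences. The 1 was Tsc22d3, whose window reads TTCTGTGAA. The motif TGACNNNGC, the antioxidant response element, was found in 2 of 39 lower genes (5.13%) and 4 of 14 higher genes (28.6%), against 14.0% of all genes. The 4 were Slc39a5, Acot3, Slc22a27 and Xlr4b. The absence of a motif says only that these letters are not in the window.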

How the data were processed

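Liver RNA of 28 mice was sequenced on a DNBSEQ platform, per the labels. The authors deposited raw read counts per gene for each sex, a table of 32544 genes with 1 column per animal, and CPM tables that were not used. The submitters' processing notes name FastQC, edgeR and GRCm38 (mm10), with no versions or roles. The sources used here name no aligner, counting program, annotation or strand setting.

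The 28 count columns used held 18741939 to 22652285 counts. Without molecular identifiers, reads are not independent molecules. Genes were kept by filterByExpr and scaled by TMM in edgeR 4.0.16 (R 4.3.3). CPM in the text are TMM-scaled, levels on the log2 scale carry a prior count of 2, and differences between sides are differences of mean log2 CPM, with an SE over 4 and 4 animals. CPM do not account for gene length, so they compare animals, not genes. Tests were edgeR's quasi-likelihood test (robust) with Benjamini-Hochberg adjustment over all tested genes, called at adjusted p under 0.05, fitted over 16 males, 12 females or 14 CTD livers; no test was run between the sides. The SE of a fitted log2 fold change is its size over the square root of F, an approximation. DESeq2 1.42.0, other scalings, filters, prior counts, fold lines and leaving out each animal were alternatives.

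Members and lists were chosen with earlier results of these data known. Genes were named by rule: the 4 markers, up to 12 of the widest lower and up to 12 of the widest higher separated genes with at least 5 CPM on a side (11 higher genes reached it), up to 3 separated members of each list or, where there were none, values of 2 members, and Myc. Not every gene it selects is reported, and 2 separated genes that count in the totals are not reported here by name. Others (Mup3, Cyp7b1, Cyp4a12a, Ddit4, Pfkfb3, Nnmt, Fgf21, Cux2, Adgre1, H2-Ab1, Col1a1 and the growth hormone signalling genes) were chosen after their values were seen. On simulated counts for HFC against CTD in females (13768 genes), the test called 82% of 50 genes shifted by 1 log2 and 94% of 50 shifted by 2.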

Additional observations from a re-analysis of the deposited data

Results flagged for a closer look

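Of 144 combinations of a gene and a group of males (48 genes, most of them described above, in 3 groups), 15 had a liver whose gap to its nearest neighbour was wide for the range of its group, a criterion that chance meets in about 1 in 20 groups, and gene lists and livers are not independent. Among CTD males, CT 320 stood apart in 5 genes. It held 0.539 CPM of Cyp2b13, 66.1 CPM of Igkc, 17.2 CPM of Jchain and 34.9 CPM of Col1a1 as the highest liver, and 78.4 CPM of C6 as the lowest. CT 313 was apart in 2 acute phase genes, with 986 CPM of Saa1 and 653 CPM of Saa2.

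Among low-score livers, KO 415 was apart with 19.4 CPM of Elovl3 as the highest. KO 414 was apart with 7.03 CPM of Cyp7b1 and 23.4 CPM of Abcd2, both the lowest. CT 416 held 14.5 CPM of Cyp2b13 and CT 418 held 20.5 CPM of Cyp2b10, a CAR target, both the highest. Among high-score livers, CT 417 was lowest in Ddit4 at 10.3 CPM, KO 540 highest in Gstm3 at 2174 CPM and CT 543 highest in Cish at 39.8 CPM. The cause of these values was not tested.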

How the results depend on the processing

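No paired analysis was possible because each animal carries its own number and no group shares one. With DESeq2 size factors, or a prior count of 0.5, the separated genes stayed within 1.5 times, and 48 of the 52 lower genes and 24 of the 25 higher genes were kept with library totals. A fold line of 1.5 gave 100 lower and 81 higher genes, and one of 4 gave 18 and 2. Higher genes were 42 with no filter on low counts and 15 with a prior count of 8. Leaving out 1 liver gave 51 to 87 lower and 26 to 59 higher genes.

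Library totals in place of TMM factors moved the median of all genes to 0.24 log2 for HFC in males and 0.31 in females, with 7356 higher and 750 lower, and 6079 higher and 519 lower genes. In females, leaving out 1 animal gave 865 to 1971 higher and 818 to 1723 lower genes. Of the higher separated genes, 10 then rose and 2 fell in females with library totals, and 3 to 5 rose with 1 animal left out. Lower separated genes called higher in females than in males were 1 to 4 with 1 animal left out. For KO against CT, DESeq2 called 3 genes lower. Of genes separated by 4-fold, 15 of 18 lower and 2 of 2 higher were called for HFC in males, 14 of 18 lower for HFC in females, with 0 of 2 higher genes called either way, and 15 of 18 lower with 0 in the other direction and 2 of 2 higher between the sexes. Counting error is wide for separated genes under 1 CPM on both sides, such as Hcrtr2, Capn8 and Fmn2.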
